A study of Mus musculus with 6 samples.

Results

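The histone gene regions were the 42 accessible regions, of 63430 in the table, that were assigned to a protein-coding gene whose name starts with one of the prefixes Hist1h, Hist2h, Hist3h, Hist4h, H2af, H3f, H1f, H2ac, H2bc, H3c and H4c, at any distance from its transcription start. They belonged to 33 genes by gene identifier, and all 42 passed the filter on low signal, as did 61327 regions in all. Of the 42, 40 belonged to genes counted as clustered by their names and 2 to a gene that stands alone, H1f10. The 40 include 2 regions of H4f16, which lies on chromosome 6, away from the main cluster. The assay was ATAC-seq, where a transposase, Tn5, tags open chromatin with adapters so that read density reports accessibility. Both groups were NIH/3T3, a mouse fibroblast line, and Cas13d, an RNA-targeting CRISPR nuclease, had been knocked into all cells. The Actg1 guide group (3 libraries) had been transfected with a guide RNA against the mRNA of Actg1, which encodes cytoplasmic gamma-actin, and the control group (3 libraries) with a guide against GFP. The stated aim of the study was to learn how mRNA degradation contributes to transcriptional adaptation. Everything here comes from 1 cell line, no group without Cas13d or without a guide was analysed here, and the level of Actg1 mRNA was not measured in these data.

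Histones are the proteins around which DNA is wound. H2A, H2B, H3 and H4 form the nucleosome core, and H1 proteins bind the DNA that links cores. Most core histone genes are small, lack introns, lie in clusters and are transcribed mainly in S phase, when new chromatin is assembled. Their mRNAs end in a stem-loop rather than a poly(A) tail. H2A and H2B genes often sit back to back and share the stretch between their starts. Replication-independent variants such as H2A.Z and H3.3 are encoded by genes that stand alone.

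Estimated reads in regions per library lay between 6785910 and 9471818 in the GFP guide group and between 5675931 and 9526231 in the Actg1 guide group. The counts of GFP guide replicates 1 and 2 agreed within sampling noise, differing by less than it (chi-square per region 0.989, p = 0.954 over 46682 regions) and were averaged and counted as 1 sample, so that the tests set 2 GFP guide samples against 3 Actg1 guide samples. Of 12 fibroblast marker genes, 10 had a promoter region, with a summed signal of 4282 to 4373 in the GFP guide libraries and 3888 to 4006 in the Actg1 guide libraries. Promoter regions were present for 1 of 5 epithelial markers (98 to 117 and 95 to 132), for 1 of 5 immune markers, Cd68 (42 to 56 and 91 to 112), and for 0 of 4 endothelial markers. Of the fibroblast markers' 13 promoter regions, 1 was called higher and 5 lower. Over all protein-coding promoter regions, 12.9% were called higher and 18.3% lower. Pdgfra and Thy1 had no promoter region. The part of these marker differences in the histone results was not tested.

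On chromosome 13, the large histone cluster held 38 of the 42 regions, in a span of 2.05 Mb (mm10, chr13:21709994-23761596). They fell into 3 blocks separated by more than 100 kb, with 6, 5 and 27 regions over 40.8, 8.739 and 235.1 kb, and gaps of 284.2 and 1483 kb. RefSeq places 52 protein-coding histone genes in that span or just past its end, where H3c1 and H1f1 lie. A histone region overlapped 33 of them. Another 2 regions lay on chromosome 6 at H4f16 (older name Hist4h4), an H4 gene away from the main cluster, and 2 more on the same chromosome at H1f10. The table gives one symbol to genes that encode the same protein, so that its H4c1 covers 10 gene identifiers. Genes are therefore named here by the RefSeq gene found at each region's position. Of the 42 regions, 35 had their centre within 1 kb of the start of the assigned gene. Regions that held the starts of a divergent H2A and H2B pair numbered 6.

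Promoter sequences of 6 genes are shown as examples from regions called higher, called lower and not called. The regions at H4f16, H4c3 and H2ac4 rose with the Actg1 guide, that at H2ac10 fell, and those at H3c2 and at the start of H2bc8 were not called. Each window runs from 250 bases before to 50 after the RefSeq start (GRCm38.p6) and reads 5′ to 3′ on the gene's strand. The windows are H4f16 at chr6:136804382-136804681, minus strand, H4c3 at chr13:23698409-23698708, minus strand, H2ac4 at chr13:23750838-23751137, plus strand, H2ac10 at chr13:23533625-23533924, plus strand, H3c2 at chr13:23752095-23752394, plus strand, and H2bc8 at chr13:23571150-23571449, plus strand. Capitals mark matches, on either strand, to 4 motifs. These are the TATA box, searched as TATAAA, and the binding site of the factor NF-Y, the CCAAT box, searched as CCAAT. The octamer bound by the factor Oct1 was searched as ATTTGCAT, and an E2F-like site was searched as TTTNNCGC.
H4f16: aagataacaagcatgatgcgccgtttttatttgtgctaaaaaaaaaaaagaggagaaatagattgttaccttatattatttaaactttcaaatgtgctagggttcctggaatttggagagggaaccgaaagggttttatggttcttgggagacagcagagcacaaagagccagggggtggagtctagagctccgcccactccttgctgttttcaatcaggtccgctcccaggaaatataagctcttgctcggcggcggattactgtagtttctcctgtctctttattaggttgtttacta
H4c3: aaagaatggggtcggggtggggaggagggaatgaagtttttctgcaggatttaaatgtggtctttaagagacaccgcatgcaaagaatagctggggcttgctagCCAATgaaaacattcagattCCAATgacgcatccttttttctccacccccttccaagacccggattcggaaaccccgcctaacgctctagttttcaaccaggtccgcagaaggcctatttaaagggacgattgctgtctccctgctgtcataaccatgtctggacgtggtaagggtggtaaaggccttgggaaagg
H2ac4: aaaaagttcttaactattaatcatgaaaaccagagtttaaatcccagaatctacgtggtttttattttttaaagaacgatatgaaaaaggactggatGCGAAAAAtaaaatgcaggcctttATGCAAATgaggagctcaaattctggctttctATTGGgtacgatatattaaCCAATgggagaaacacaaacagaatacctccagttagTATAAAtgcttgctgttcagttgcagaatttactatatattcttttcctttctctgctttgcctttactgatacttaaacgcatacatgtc
H2ac10: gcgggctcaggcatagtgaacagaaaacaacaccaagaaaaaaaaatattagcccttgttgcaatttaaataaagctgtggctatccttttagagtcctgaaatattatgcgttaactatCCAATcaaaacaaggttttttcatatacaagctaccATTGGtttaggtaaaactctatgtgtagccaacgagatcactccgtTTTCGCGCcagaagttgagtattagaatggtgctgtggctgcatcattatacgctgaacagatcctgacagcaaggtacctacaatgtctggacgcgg
H3c2: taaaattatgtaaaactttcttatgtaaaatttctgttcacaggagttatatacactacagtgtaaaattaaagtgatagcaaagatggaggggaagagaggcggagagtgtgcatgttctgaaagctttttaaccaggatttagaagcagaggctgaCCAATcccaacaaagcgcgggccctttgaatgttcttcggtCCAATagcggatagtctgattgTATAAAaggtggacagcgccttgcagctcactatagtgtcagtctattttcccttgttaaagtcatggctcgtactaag
H2bc8: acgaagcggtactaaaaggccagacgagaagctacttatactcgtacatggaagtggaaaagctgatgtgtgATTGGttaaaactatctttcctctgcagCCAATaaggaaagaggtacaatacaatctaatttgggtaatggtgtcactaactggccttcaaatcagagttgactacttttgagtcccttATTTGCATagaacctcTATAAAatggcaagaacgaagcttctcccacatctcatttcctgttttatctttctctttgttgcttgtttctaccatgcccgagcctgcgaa

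A RefSeq promoter window was matched to 33 histone starts inside the regions. CCAAT was found in 25 of the 33 and in 37.4% of all 32851 promoter windows of that length. It was present in 8 of 8 H2A, 9 of 9 H2B and 6 of 6 H3 windows and in 2 of 9 H4 windows, of which H4c3 above is 1. The octamer was found in 4 H2A and 5 H2B windows, in 0 H3 and 0 H4 windows, and in 1.74% of all windows; H2ac4 carries it in reverse and H2bc8 in the forward orientation. TATAAA occurred in 17 of the 33 windows against 13.6% of all, and TTTNNCGC in 10 against 5.17%. In none of the 33 windows did hits of different motifs overlap. Divergent H2A and H2B genes read partly the same DNA, so that their windows are not independent. The window of H4f16, the strongest histone region, held 0 of the 4 motifs, and a missing match says only that these letters are not in this window. Among windows in regions called higher, CCAAT stood in 5 of 9, and among those in regions not called in 19 of 23. The only windows without CCAAT were of H4 genes and H1f10, so these shares follow the histone classes in each group. A link between the motif and the calls was not tested.

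Of the 42 histone regions, 13 were called higher with the Actg1 guide and 1 lower (limma, Benjamini-Hochberg adjusted p under 0.05 over all tested regions), which is 33.3%. Over all tested regions 41.3% were called, 20.6% higher and 20.7% lower, so the share of calls among histone regions was not above that background while their directions were unequal. The median log2 fold change, on the log2(signal + 1) scale and given as the Actg1 guide over the GFP guide throughout, was 0.12 for histone regions and -0.0057 for all regions. It was above 0 in 32 of 42 histone regions and ranged from -0.28 to 0.88. All 3 Actg1 guide libraries lay above all 3 GFP guide libraries in 15 of the 42 regions (25.2% of all regions) and below them in 1 (25.5%). Among the 35 regions within 1 kb of a start, 9 were higher and 1 lower with a median of 0.088, against 12.9% higher and 18.3% lower of protein-coding promoter regions and their median of -0.0228. Of the 7 regions farther away, 4 were higher and 0 lower, against 22.2% and 21.1% of all such regions, and their median was 0.32. The count of 14 calls fell to 6 without GFP guide replicate 3, where all regions fell from 25323 to 12793 calls, and to 9 without Actg1 guide replicate 2.

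**Figure D1:**
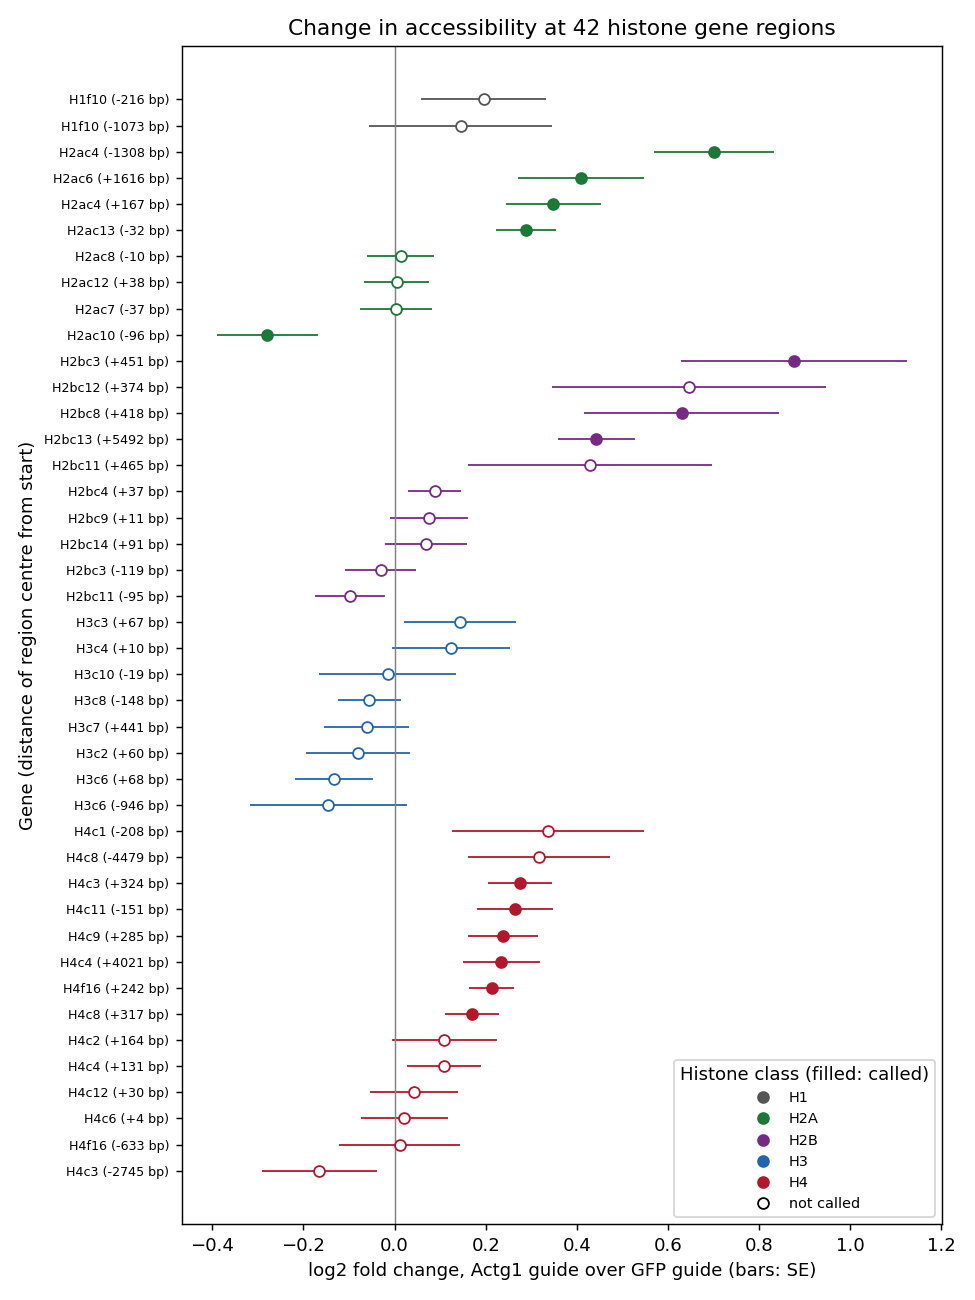
Log2 fold change (horizontal axis, Actg1 guide over GFP guide, bars give the standard error) of the 42 histone regions, listed by gene and distance of the region centre from the start, coloured by class and filled where called. The filled points are 13 to the right of 0 and 1, H2ac10, to the left, and the H3 points are all open.

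Summed over the 42 regions, the signal was 8861, 8984 and 8903 in GFP guide replicates 1 to 3 and 9677, 9932 and 9465 in the Actg1 guide replicates. Every Actg1 guide library was above every GFP guide library, with a ratio of group means of 1.09. The same sum over all regions went slightly the other way, with a ratio of 0.985.

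H4 is the core histone that pairs with H3. Of its 14 regions, more than any other class had, 6 were higher and 0 lower. That is 42.9% higher, against 20.6% higher and 20.7% lower of all regions (41.3% called). Of its 11 promoter regions, 5 were higher (45.5%), against 12.9% of protein-coding promoter regions. All 11 had a fold change above 0 on the deposited scale, with a median of 0.17. The count of 6 fell to 3 without GFP guide replicate 3. The strongest of all histone regions, 242 bp downstream of the H4f16 start, had a signal of 768, 775 and 752 with the GFP guide and 868, 864 and 918 with the Actg1 guide. The groups did not overlap, and the log2 fold change was 0.21 (SE 0.0498, limma adjusted p = 0.00058). Its level was 916 signal per kb with the GFP guide, the highest of the 42 regions per length. A weaker region 633 bp upstream of the same gene was not called, with 82, 105 and 89 against 91, 96 and 89.

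The H4c3 promoter region, whose sequence is shown above, rose from 359, 331 and 337 to 409, 426 and 404 (log2 fold change 0.28, SE 0.0694, limma adjusted p = 0.00131). Every Actg1 guide library exceeded every GFP guide library, as it did at the next 3 H4 promoters. H4c11 had 266, 291 and 261 against 304, 370 and 303 (log2 fold change 0.27, limma adjusted p = 0.00942). H4c9 had 295, 261 and 286 against 326, 350 and 323 (0.24, limma adjusted p = 0.0109). H4c8, at 507, 494 and 549 against 598, 596 and 576, changed least among the called regions (0.17, limma adjusted p = 0.0196). These 3 calls were the less stable ones. The call at H4c11 ended on leaving out GFP guide replicate 3 (limma adjusted p = 0.237) or replicate 2 of the Actg1 guide (0.103), and that at H4c9 without GFP guide replicate 3 (0.0769). At H4c8 it ended without Actg1 guide replicate 1 (0.0709) or 2 (0.0568).

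The sixth H4 call was a region 4021 bp downstream of H4c4 that covers a RefSeq start of H2bc6, an H2B gene. Its signal was 244, 245 and 252 against 294, 318 and 267 (log2 fold change 0.23, limma adjusted p = 0.0219), with no overlap between the groups. That call ended without GFP guide replicate 3 (limma adjusted p = 0.138), Actg1 guide replicate 1 (0.0771) or Actg1 guide replicate 2 (0.119). The promoters of H4c1, H4c2, H4c4, H4c6 and H4c12 were not called, with log2 fold changes from 0.02 at H4c6 to 0.34 at H4c1, the last in a region of only 30 to 36 signal with the GFP guide. Of the remaining H4 regions away from a start, that 4479 bp upstream of H4c8 had 64, 72 and 55 against 84, 77 and 69 (0.32, limma adjusted p = 0.0999), and that 2745 bp upstream of H4c3 had 123, 136 and 107 against 102, 100 and 113 (-0.17, limma adjusted p = 0.307). Neither was called.

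H2A, the partner of H2B in the nucleosome core, had 8 regions, of which 4 were higher and 1 lower. That is 62.5% called, in a class of only 8 regions, against 41.3% of all regions. This count of 5 fell to 2 without GFP guide replicate 3 and to 3 without Actg1 guide replicate 3. The region shared by the divergent pair H2ac13 and H2bc13 had 413, 415 and 415 with the GFP guide and 508, 534 and 479 with the Actg1 guide. The groups lay well apart (log2 fold change 0.29, SE 0.0648, limma adjusted p = 0.00036). The other 5 regions with a divergent pair of starts were not called: at H2ac12 with H2bc12, H2ac11 with H2bc11, H2ac8 with H2bc8, H2ac7 with H2bc7 and H2ac6 with H2bc4 the log2 fold changes were 0.0047, -0.10, 0.01, 0.0041 and 0.09. Whether the H2ac13 pair differs from them was not tested.

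At H2ac4 both regions rose. The printed promoter window carries all 4 motifs, and its octamer and E2F-like matches lie outside the called region. The region at the start had 149, 164 and 134 against 201, 177 and 177 (log2 fold change 0.35, limma adjusted p = 0.00638), and a region 1308 bp upstream had 58, 85 and 77 against 130, 127 and 108 (0.70, SE 0.131, limma adjusted p = 2.92e-05). In both, the groups did not overlap. The promoter call ended on leaving out GFP guide replicate 3 (limma adjusted p = 0.215) or replicate 1 of the Actg1 guide (0.0618), and the upstream call was kept in every alternative tried. A region 1616 bp from the H2ac6 start had 73, 76 and 74 against 91, 96 and 111 (0.41, limma adjusted p = 0.0148), and that call ended on leaving out GFP guide replicate 3 (0.124) or replicate 3 of the Actg1 guide (0.0703).

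H2ac10 (older name Hist1h2af) was the only one of the 42 regions called lower. Its promoter region had 147, 153 and 171 with the GFP guide and 142, 131 and 123 with the Actg1 guide, without overlap (log2 fold change -0.28, SE 0.111, limma adjusted p = 0.0401). The margin at the closest libraries was 142 against 147. The call ended when the libraries were scaled to the same summed signal (limma adjusted p = 0.0578) and without GFP guide replicate 2 (0.0622), GFP guide replicate 3 (0.382), Actg1 guide replicate 2 (0.0814) or Actg1 guide replicate 3 (0.12).

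H2B had 10 regions, of which 3 were higher and 0 lower. These are 30% higher, against 20.6% higher and 20.7% lower of all regions (41.3% called). Of its 9 promoter regions 2 were called (22.2%), both higher. Over protein-coding promoter regions 31.2% were called, 12.9% higher and 18.3% lower. The H2B count of 3 fell to 1 when Actg1 guide replicate 2 was left out. The region 5492 bp downstream of H2bc13 had 207, 227 and 220 against 312, 310 and 272 (log2 fold change 0.44, SE 0.0845, limma adjusted p = 3.96e-05), with the groups far apart, and its call was kept in every alternative tried. The region with the highest H2B signal, at the H2bc4 start, was not called, with 542, 551 and 563 against 587, 607 and 575 (0.09, limma adjusted p = 0.233). It covers the start of H2ac6 as well. The promoters of H2bc9 and H2bc14 had log2 fold changes of 0.08 and 0.07 and were not called.

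Some large fold changes came from short regions of low signal just downstream of H2B starts. The largest of the 42 was at the region 451 bp downstream of H2bc3, which had 26, 22 and 16 against 34, 49 and 30 (log2 fold change 0.88, SE 0.249, limma adjusted p = 0.004), and that 418 bp downstream of H2bc8 had 24, 29 and 26 against 37, 46 and 41 (0.63, SE 0.214, limma adjusted p = 0.0159). Neither pair of groups overlapped. Both calls ended without GFP guide replicate 3 (limma adjusted p = 0.203 and 0.109) and without Actg1 guide replicate 2 (0.0606 and 0.0578). Similar regions 374 bp downstream of H2bc12 and 465 bp downstream of H2bc11 had fold changes of 0.65 and 0.43 and were not called (limma adjusted p = 0.0803 and 0.204). These 4 were set side by side after their values were seen. All 4 overlap the bodies of their RefSeq genes. Signal inside histone gene bodies is uncertain, as near-identical copies could split it. At H2bc3 and H2bc8, the main regions at the starts were not called, with log2 fold changes of -0.03 and 0.01. The start of H2bc8 is the one printed above. The median of the H2B regions, 0.26, fell to 0.0816 when only regions reaching a signal of 30 in 3 or more libraries were kept. That filter removed 2 of these short regions, those at H2bc12 and H2bc11. The short regions at H2bc3 and H2bc8 passed it only through the Actg1 guide libraries, where they were higher.

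Of the core histones, H3 alone had no call. All 8 H3 regions lay within 1 kb of a start, where 31.2% of protein-coding promoter regions were called. Of the 8, 0 were called and 2 had a fold change above 0, with a median of -0.06 and a range from -0.15 to 0.14. The strongest, at H3c8, had 402, 411 and 395 with the GFP guide and 384, 402 and 371 with the Actg1 guide, and the groups overlapped (log2 fold change -0.06, SE 0.0692, limma adjusted p = 0.551). At the H3c2 promoter shown above the signal was 131, 162 and 142 against 123, 134 and 154, also with overlap (-0.08, SE 0.114, limma adjusted p = 0.608). The regions above 0 were the promoters of H3c3 (0.14, SE 0.123) and H3c4 (0.12, SE 0.13), whose changes were close to their standard errors. The lowest values, -0.13 and -0.15, were those of the H3c6 promoter and of a region 946 bp upstream of it. The H3 median stayed below 0 in every alternative tried, while the number of H3 regions above 0 varied between 1 and 4. A difference between H3 and the other classes was not tested.

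H1f10, a linker histone gene on chromosome 6 outside the clusters, was the only single gene reached by the prefixes. Its region 216 bp upstream of the start had 82, 70 and 81 against 89, 89 and 92, without overlap (log2 fold change 0.20, SE 0.138, limma adjusted p = 0.265). The region 1073 bp upstream had 30, 39 and 40 against 39, 46 and 39 (0.15, limma adjusted p = 0.594), and there the groups overlapped. Neither was called, and 2 regions of 1 gene are too few to set single genes against clustered ones. Of the 40 clustered regions 14 were called, with a median of 0.11. These are 35% (32.5% higher, 2.5% lower), against 41.3% of all regions (20.6% higher, 20.7% lower). Those 40, counted as clustered by gene name, include the 2 regions of H4f16, of which 1 was called. The difference between the 2 kinds was not tested.

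**Figure D2:**
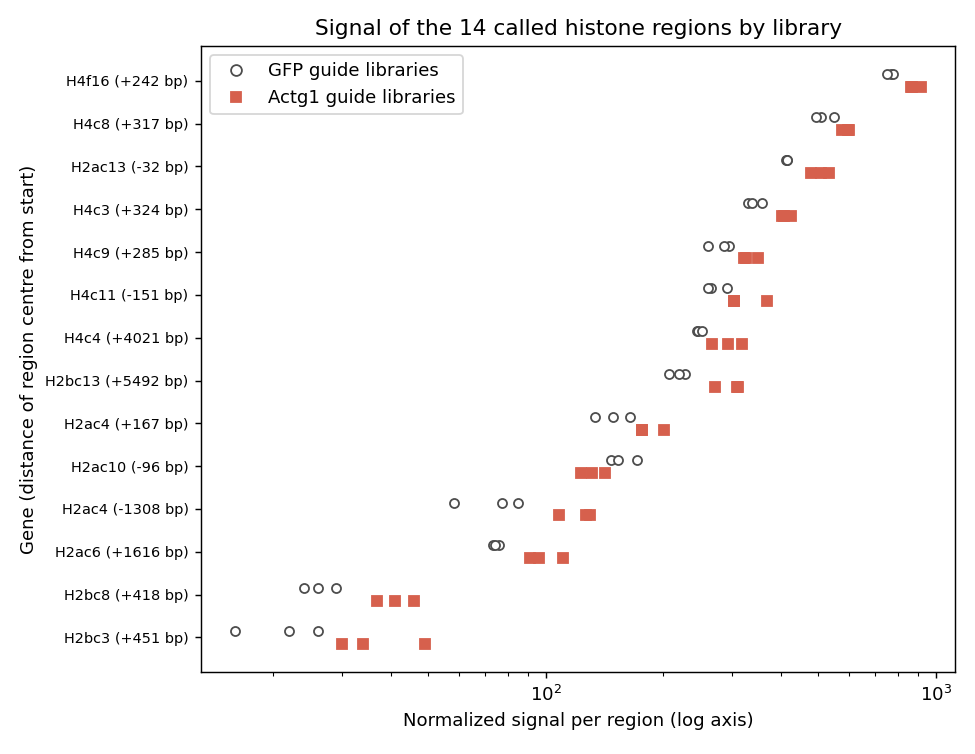
Normalized signal (log axis) of the 14 called histone regions in each library, with open circles for the GFP guide and squares for the Actg1 guide, ordered by mean signal. In each region the groups do not overlap, and only at H2ac10 do the squares lie to the left.

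**Figure D3:**
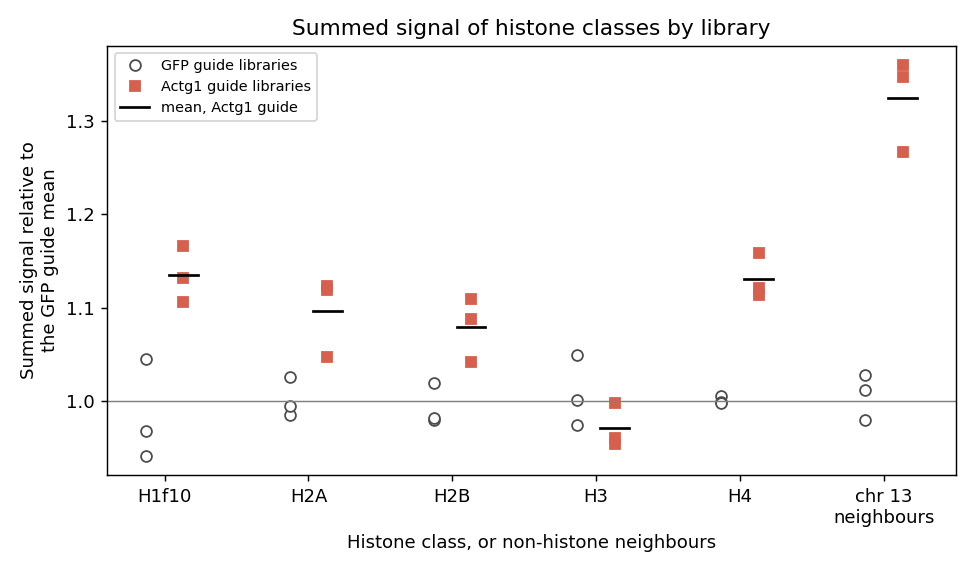
Summed signal of each histone class and of the non-histone neighbours on chromosome 13, per library, divided by the mean of the GFP guide (open circles: GFP guide libraries, squares: Actg1 guide libraries, bar: Actg1 guide mean). The H4 and neighbour squares all lie above the circles, at a mean ratio of 1.13 and 1.32, while for H3 the symbols overlap.

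Per class, the summed H4 signal was 3560, 3536 and 3533 with the GFP guide and 3941, 4101 and 3968 with the Actg1 guide, a ratio of 1.13. For H3 the sums were 1381, 1447 and 1344 against 1324, 1377 and 1316, a ratio of 0.971. H2A sums were 1859 to 1937 and 1977 to 2120, H2B sums 1949 to 2028 and 2073 to 2208. In H2A, H2B and H4 every Actg1 guide library was above every GFP guide library, and in H3 the groups overlapped. These sums are a description and carry no test.

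The histone genes analysed here whose names lie outside the prefixes had 13 regions, of which 3 were higher and 1 lower. These calls were 30.8% of the 13, against 41.3% of all regions. The linker histone gene H1-2 (H1f2), in the third chromosome 13 block, had 581, 647 and 594 against 788, 808 and 707 (log2 fold change 0.34, SE 0.0566, limma adjusted p = 3.93e-06). The region of H1-3 (H1f3) covers the whole RefSeq gene, although its centre lies 2483 bp from the start assigned to it. It had 462, 470 and 461 against 549, 579 and 472 (0.20, limma adjusted p = 0.0175). Both the H1-2 and the H1-3 region lay above the GFP guide in every Actg1 guide library. The H1-3 call ended without GFP guide replicate 3 (0.235), Actg1 guide replicate 1 (0.129) or Actg1 guide replicate 2 (0.167), as limma adjusted p. H2aw, an H2A gene on chromosome 11, had 380, 338 and 332 against 401, 434 and 442 (0.30, limma adjusted p = 0.000619, and 0.0741 without GFP guide replicate 3). The promoter of H2az1, which encodes the variant H2A.Z, went the other way, from 863, 795 and 882 to 725, 688 and 709 (-0.27, SE 0.052, limma adjusted p = 3.74e-05). The regions of the H3.3 genes H3f3a and H3f3b were not called, with log2 fold changes of 0.01 and 0.04, nor were those of H2az2, Macroh2a1, Macroh2a2, Cenpa, H1.8 and H2aj, nor a second region of H2az1.

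The histone blocks on chromosome 13 sit among other accessible regions. In the span, 62 regions that belong to no histone gene were tested, and 42 of them were higher and 1 lower, with a median log2 fold change of 0.44. On the rest of chromosome 13, 42.2% of regions were called, 21.5% higher and 20.7% lower, with a median of -0.009. This comparison was added after the data had been seen, and its count of 43 fell to 26 without GFP guide replicate 3. All 42 higher neighbours lay in the gaps between blocks, where 58 were tested, and of the 4 tested inside blocks 0 were higher and 1 lower. The summed neighbour signal was 7737, 7855 and 7488 with the GFP guide and 10386, 10294 and 9681 with the Actg1 guide, a ratio of 1.32 against 1.08 for the 38 histone regions of the span and 0.978 for the rest of the chromosome. The Actg1 guide libraries were thus above the GFP guide libraries in both kinds of region, and the ratio was larger for the neighbours. Only 15 of the 63 neighbours were promoter regions, against 35 of the 42 histone regions. Of those 15, 7 were higher and 0 lower (median 0.315), and of the 47 other neighbours tested 35 were higher and 1 lower (0.471). On the rest of the chromosome, 7.96% of promoter regions were higher and 28.1% lower, and of other regions 24.2% and 19.2%. A difference between histone regions and neighbours was not tested.

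Among named neighbours, chosen after their values were seen, a region 3376 bp from the start of Btn1a1, which encodes a milk fat membrane protein, had 34, 34 and 46 against 94, 103 and 102 (log2 fold change 1.31, SE 0.158, limma adjusted p = 7.15e-09). A region 2980 bp from the start of Abt1, a gene for a nuclear basal transcription activator, had 169, 172 and 167 against 317, 300 and 320 (0.88, SE 0.085, limma adjusted p = 3.25e-11). At the Abt1 start itself the signal was 118, 133 and 136 against 142, 135 and 132 (0.06, limma adjusted p = 0.702). Of the 7 neighbouring protein-coding promoter regions 1 was called higher (14.3%) and 0 lower. Over all protein-coding promoter regions, 12.9% were higher and 18.3% lower.

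**Figure D4:**
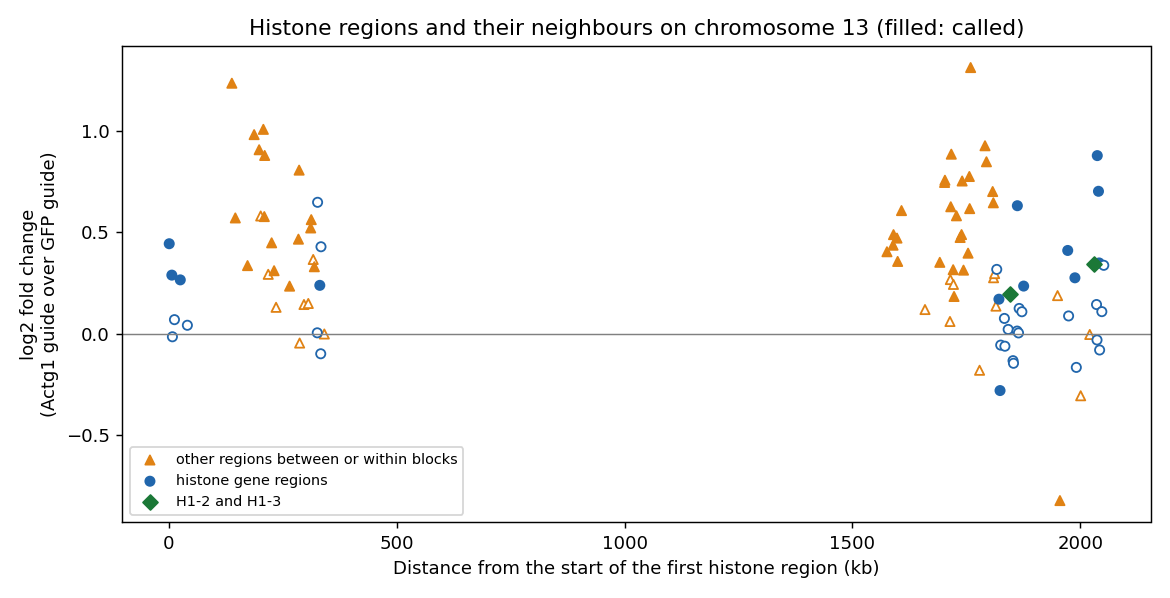
Log2 fold change (vertical axis, Actg1 guide over GFP guide) against distance in kb from the first histone region of the chromosome 13 span, for histone regions (circles), other regions (triangles) and the linker genes H1-2 and H1-3 (diamonds), filled where called. The triangles between the blocks lie mostly above 0, 42 of them called higher, while histone regions in the blocks scatter from -0.28 to 0.88.

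The genes that supply and handle histones were read at their promoters. Over all protein-coding promoter regions, 31.2% were called, 12.9% higher and 18.3% lower. Of the 69 promoter regions of these genes 25 were called, 11 higher and 14 lower. This count fell to 7 without GFP guide replicate 3, and with cyclic loess scaling the split was 13 higher and 9 lower, with scaling to the same summed signal 12 and 11. Among 13 promoters of histone gene transcription and mRNA processing, 2 were higher (15.4%) and 5 lower (38.5%), with a median of -0.08. Slbp, whose protein binds the histone mRNA stem-loop, had 584, 589 and 586 against 652, 669 and 634 (log2 fold change 0.15, limma adjusted p = 0.0258), and Ncbp1, a cap-binding subunit, changed by 0.38. Lower were Lsm10, a subunit of the U7 particle that processes histone mRNA (-0.38, limma adjusted p = 0.00069), Cstf2, a 3′ end processing factor (-0.36), and Cpsf2, of the cleavage complex (-0.25). Apart from Lsm10, these calls ended on leaving out GFP guide replicate 3, where the limma adjusted p was 0.136 at Slbp, 0.3 at Ncbp1, 0.067 at Cstf2 and 0.0694 at Cpsf2. They also ended without Actg1 guide replicate 1 at Slbp (0.057), Ncbp1 (0.0808) and Cpsf2 (0.0621), and without Actg1 guide replicate 2 at Slbp (0.0686) and Ncbp1 (0.0841).

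Histone chaperones, which carry histones and place them on DNA, had 5 higher (17.9%) and 4 lower (14.3%) of 28 promoter regions, with a median of 0.02. Over all protein-coding promoter regions, 12.9% were higher and 18.3% lower. At Cabin1, of the H3.3 chaperone complex HIRA, a weak region 938 bp from the start had 38, 36 and 29 against 69, 49 and 50 (log2 fold change 0.74, limma adjusted p = 0.00224). The stronger Cabin1 region, 22 bp from the start, was not called, with 291, 310 and 306 against 320, 318 and 308 (0.06, limma adjusted p = 0.588). Vps72, which binds H2A.Z, changed by 0.33 and Nasp, a chaperone of H3 and H4, by 0.32. At Asf1a, which also carries H3 and H4, the region 67 bp from the start fell from 724, 708 and 735 to 604, 516 and 570 (-0.37, SE 0.0599, limma adjusted p = 3.26e-06), and Rbbp7 (-0.34) and Nap1l1 (-0.29) were lower. A weak second Asf1a region was not called (0.36, limma adjusted p = 0.146). With GFP guide replicate 3 omitted, Cabin1 (limma adjusted p = 0.135), Nasp (0.137) and Vps72 (0.0715) were no longer called. The same held for Vps72 with GFP guide replicate 2 (0.0851) or Actg1 guide replicate 3 (0.0541) omitted.

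Genes of S phase and DNA replication had 5 higher (17.2%) and 5 lower (17.2%) of 29 promoter regions, with a median of -0.06. E2f2, an S phase transcription factor, had 111, 107 and 107 against 161, 145 and 147 (log2 fold change 0.48, limma adjusted p = 0.00065). Cdt1 and Cdc6, which load the replicative helicase, changed by 0.39 and 0.34. Lower were Rfc4, of the clamp loader (-0.21), E2f3 (-0.16) and Ccne1, cyclin E1 (-0.16). Slbp belongs to this list as well. The calls at Cdc6 (limma adjusted p = 0.0923), Rfc4 (0.154), E2f3 (0.354) and Ccne1 (0.311) ended without GFP guide replicate 3. Those at E2f3 and Ccne1 also ended with cyclic loess scaling (0.0677 and 0.0991) and without Actg1 guide replicate 2 (0.177 and 0.142) or 3 (0.13 and 0.0591), and that at Ccne1 with scaling to the same summed signal (0.0819), without GFP guide replicate 2 (0.0711) and without Actg1 guide replicate 1 (0.0537). Over the 3 lists the promoter regions thus moved in both directions, next to a background of 31.2% of protein-coding promoter regions called.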

How the data were processed

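ATAC-seq libraries of 25000 NIH/3T3 cells each (transposition for 30 min at 37 °C, per the labels) were compared, 3 with a guide against Actg1 and 3 with a guide against GFP. The labels call them biological replicates but do not name separate cultures, so p-values measure only the spread between these samples. The authors deposited 1 normalized signal per region and library, rounded to whole numbers, as read from the values. The table also gives, as the authors deposited it, the fraction of each region inside a gene body, which was not used. The submitters' processing notes name the mm10 build, Picard 3.0.0, STAR 2.7.10a, Trimmomatic 0.39, DESeq2 1.36.0, DESeq and featureCounts, without saying what each did. Not given in the sources used here are the peak caller, the normalization formula, the Tn5 offset and the handling of reads that map to several places. Histone genes include near-identical copies, so signal inside their bodies could be split between copies and is uncertain.

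Reads per library were estimated from the spacing of the small values, over which GFP guide replicates 1 and 2 were compared and averaged. limma 3.58.1 (R 4.3.3), with a mean-variance trend, was fitted to log2(signal + 1) for regions that reached a signal of 10 in 3 or more of the 6 libraries. P-values were adjusted over all tested regions, and 0.05 was the threshold. The fit was tested on simulated data. Same-numbered libraries correlated at 0.0138 to 0.0252 in their deviations from the group means, and differently numbered ones at -0.0165 to -0.000345. All were small, and the numbers were not taken to pair the libraries. A weak pairing stays possible, and a replicate block was run as an alternative. Per-library values are given for called regions (up to 12 per direction and kind by size of change; H4c8, the next in size, was added after its values were seen), for the strongest region of each class, for the nearest region of the single gene, and for up to 3 called promoters per direction of each other list, some of these with the fold change only. The histone members and the lists were chosen with earlier results of these data known. Promoter windows came from RefSeq (GRCm38.p6), and those of H3c7, H2bc4 and H3c1 were not used here. One other histone gene is not reported here.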

Additional observations from a re-analysis of the deposited data

How the results depend on the processing

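The alternatives were another pseudocount, no filter or a stricter one on low signal, cyclic loess scaling, scaling to the same summed signal, 6 separate libraries, a replicate block, each library left out in turn, and regions within 1 kb of a start only. Of 17 histone regions and 23 other called regions run through the per-region alternatives (the latter added after seeing the data), 0 changed direction, and 10 of the 23 kept their call throughout. The count of called histone regions, 14, ranged from 6 to 14 when each library was left out, with 6 without GFP guide replicate 3 and 9 without Actg1 guide replicate 2, and the clustered regions gave the same 6 to 14. Leaving out GFP guide replicate 3 leaves 1 sample in that group, which is then assumed to vary like the Actg1 guide samples. The supply genes, 25 called, ranged from 7 to 25, and the chromosome 13 neighbours, 43 called, from 26 to 44. H1f10 had 0 calls in every alternative. Called regions that kept their call throughout were the H2bc13, H2ac13, H4c3, H4f16 and upstream H2ac4 regions. With the replicate block on 6 separate libraries, 14 histone regions were called, 13 higher and 1 lower, as without pairing. The short regions downstream of H2B starts had a signal of only 10 to 49 per library, and the effect of depth on them was not tested.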
